A study of Rattus norvegicus with 8 samples.

Results

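A set of 9 genes of the NF-κB and STAT3 inflammatory response was followed in the hippocampus of rats kindled with pentylenetetrazole (PTZ). They were *Ccl2* (GeneID 24770), *Ccl7* (GeneID 287561), *Icam1* (GeneID 25464), *Nfkbia* (GeneID 25493), *Birc3* (GeneID 78971), *Tgfb1* (GeneID 59086), *Stat3* (GeneID 25125), *Socs3* (GeneID 89829) and *Il1b* (GeneID 24494), 9 of the 22601 genes listed for each library, found by their NCBI GeneID. All 9 passed the filter on low values, a mean of at least 0.1 FPKM over the 8 libraries (fragments counted per kilobase of a gene's transcript and relative to those mapped in the library). They were chosen by measured values, their levels in these same 8 libraries and the differences between the groups, so those differences are given as descriptions and carry no test.

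All 8 animals were wild type Wistar rats, and each gave 1 library. The 3 rats of the Con. group received vehicle, the 3 rats of the PTZ group received PTZ and later the vehicle of the drug, and the 2 rats of the Q808 group received PTZ and later Q808, a compound under study as an antiepileptic. PTZ provokes seizures by blocking GABA-A receptors. In the PTZ and Q808 groups it was injected repeatedly below the seizure threshold so that seizures developed, with a higher dose on the last day of this kindling. Daily gavage with Q808 or its solvents followed. Both groups then received 1 more injection of PTZ below the threshold shortly before the tissue was taken. The levels in these 2 groups therefore follow both the earlier kindling and a recent injection, which cannot be told apart. The authors reported lower seizure scores and a longer latency to seizure in Q808 than in PTZ rats at that time. Between these groups, the drug and the difference in seizures cannot be told apart either. Sex and age were not given in the sources used here.

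NF-κB is a family of transcription factors held in the cytoplasm by inhibitor proteins, of which IκBα, the product of *Nfkbia*, is the best known. Cytokine or Toll-like receptor signals lead to the loss of the inhibitor, and NF-κB then enters the nucleus and activates genes for chemokines, adhesion molecules and its own inhibitors. STAT3 is phosphorylated by JAK kinases downstream of IL-6 family cytokines and switches on *Socs3*, whose product shuts off the same receptors. In brain these pathways operate in microglia, astrocytes, endothelial cells and neurons, and seizures are a known stimulus of both.

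Some features of the libraries touch every value below. Con.-3, PTZ-3 and Q808-1, called striatum-rich here, had a mean log2(FPKM + 0.1) of 6.20 to 7.35 over 6 striatum markers, and the other 5 libraries, called striatum-poor, had 1.56 to 2.48. Each group holds 1 striatum-rich library, so the striatum-rich set has no replicates, and Q808 has 1 library in either set. The erythroid list, 5 genes, also differed, with summed levels of 176 to 445 FPKM in Con., 339 to 572 FPKM in PTZ and 932 to 1231 FPKM in Q808. Means over hippocampal marker lists were lower in the striatum-rich libraries, though *Spink8* and *Pdzd2* went the other way. *Spink8* was at 0.365, 0.254 and 0.585 FPKM in Con.-3, PTZ-3 and Q808-1, and at 0 to 0.140 FPKM in the striatum-poor libraries. *Pdzd2* was at 13.2, 5.78 and 7.29 FPKM against 3.53 to 5.26 FPKM. The 5 dentate granule cell markers had a mean log2(FPKM + 0.1) of 1.16 to 1.19 there and of 2.46 to 2.93 in the striatum-poor libraries, and the 5 pyramidal neuron markers of 1.55 to 2.12 and 2.77 to 2.97, with *Spink8* at 0 in PTZ-1 and *Fibcd1* at 0 in PTZ-3. The FPKM values stood in whole-number steps between libraries for 98.5% of the tested genes, from which fragment numbers were recovered, between 9271686 and 13086283 per library in all. Intervals below are 95% Poisson intervals on these fragments and cover counting error only.

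DNA letters near transcript starts were examined for the genes that have an entry in the RefSeq promoter table of the GRCr8 assembly, 7 of the 9 (all but *Birc3* and *Ccl2*). In the 250 bases before the listed start, a κB-like motif (GGG, any 3 bases, then TTCC, on either strand) was present in *Nfkbia* and *Ccl7*, and a STAT-like motif (TTC, any 3 bases, then GAA) in *Icam1*. The κB-like motif was present in 4.53% and the STAT-like motif in 7.52% of 27457 rat promoters of the same length. The sites are shown because they belong to an inhibitor, a chemokine and an adhesion molecule whose levels differ between the groups below. Capitals mark the motif in the 30 bases printed for *Nfkbia* (chr6:78597084-78597113, minus strand, the motif beginning 31 bases before the start) and *Icam1* (chr8:27829728-27829757, plus strand, 107 bases before), both within the outermost annotated extent of the gene, and in all 250 bases for *Ccl7* (chr10:67513845-67514094, plus strand, 59 bases before).
Nfkbia: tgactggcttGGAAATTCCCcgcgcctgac
Icam1: ggcgcgaggtTTCCGGGAAagtggccccaa
Ccl7: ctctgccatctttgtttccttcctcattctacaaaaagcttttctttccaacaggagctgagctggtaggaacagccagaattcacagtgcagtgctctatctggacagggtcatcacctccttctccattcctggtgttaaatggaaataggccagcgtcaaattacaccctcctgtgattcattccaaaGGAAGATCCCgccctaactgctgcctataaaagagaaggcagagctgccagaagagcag

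These letters describe the windows and not the binding of a factor. The windows of *Tgfb1*, *Il1b*, *Stat3* and *Socs3* held neither motif. The *Socs3* window lay wholly, and the *Stat3* window partly, within the outermost annotated extent of the gene. The bases before the outermost annotated start of *Socs3* were therefore not examined.

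The 9 genes covered a wide range of levels, which FPKM allows to be set side by side per length. Averaged over the 8 libraries, *Nfkbia* was highest at 27.7 FPKM, followed by *Stat3* at 16.0 FPKM and *Tgfb1* at 8.42 FPKM. *Socs3* (1.94 FPKM) and *Icam1* (1.74 FPKM) were next and changed places between libraries, with *Socs3* above *Icam1* in PTZ-1 and PTZ-2 and below it in the other 6. The lowest 4 were *Ccl2* (0.368 FPKM), *Ccl7* (0.286 FPKM), *Birc3* (0.238 FPKM) and *Il1b* (0.121 FPKM), whose ranges over the libraries overlap. *Nfkbia* lay at the 81.6th percentile of all tested genes and *Il1b* at the 1.3rd.

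**Figure D1:**
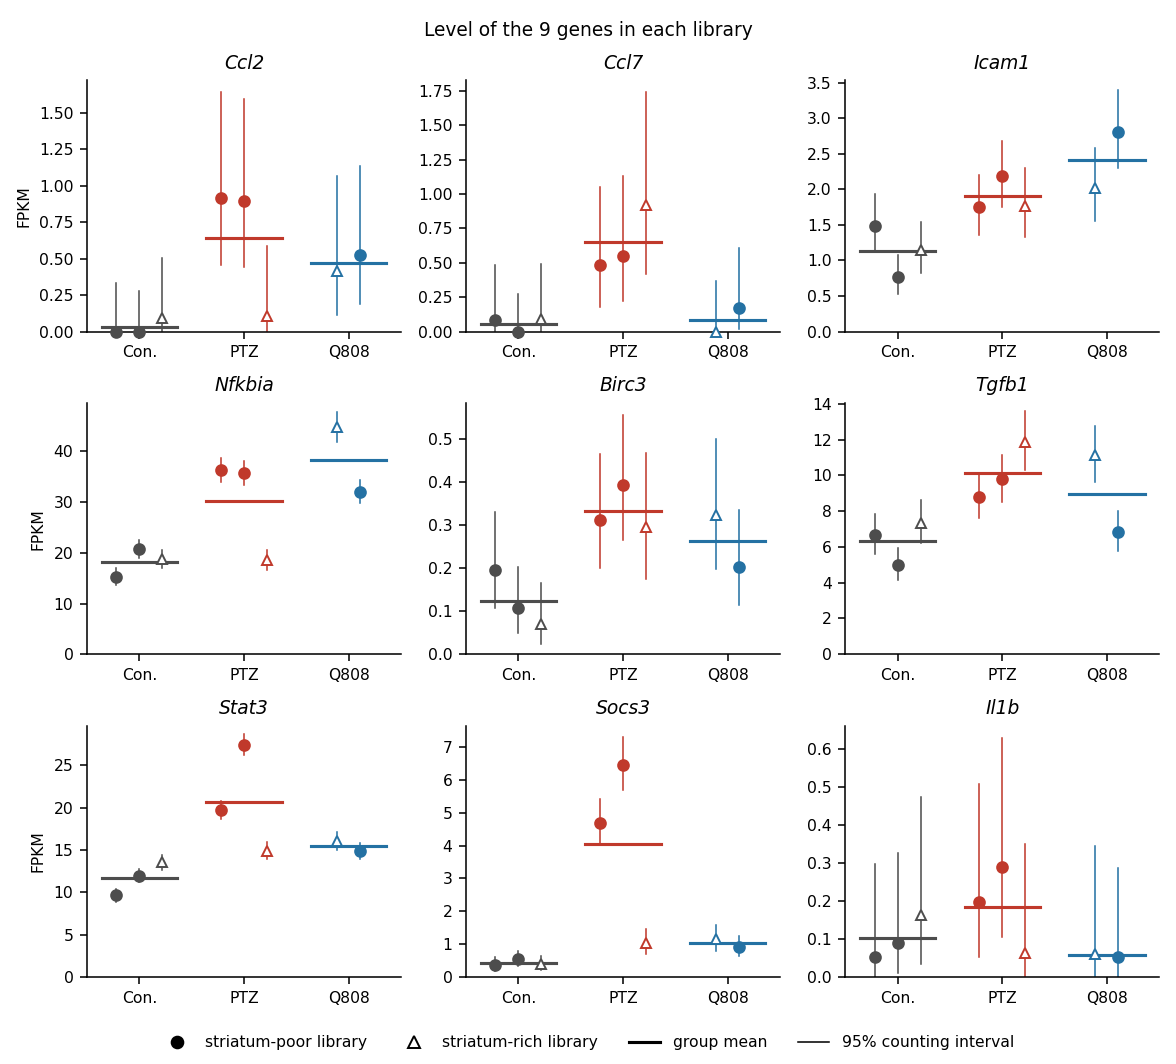
Level of each of the 9 genes in FPKM (vertical axes, each from 0) in the 8 libraries, by group. Filled circles are striatum-poor and open triangles striatum-rich libraries, horizontal bars are group means and thin vertical lines 95% Poisson intervals on recovered fragments. PTZ-1 and PTZ-2 stand above all Con. libraries in every panel, and PTZ-3 stands near the Con. libraries for *Ccl2*, *Nfkbia*, *Stat3* and *Il1b*.

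*Socs3*, the feedback inhibitor of cytokine receptors that STAT3 induces, had the largest limma difference of the 9 between PTZ and Con. on the log2(FPKM + 0.1) scale. By the ratio of group means it was 9.50-fold higher, below *Ccl2* (21.1-fold) and *Ccl7* (11.15-fold), which were also ahead of it with a pseudocount of 0.01 and with voom, limma's method for counts, on the recovered fragments. It was at 0.359, 0.534 and 0.390 FPKM in Con.-1 to Con.-3, at 4.69, 6.46 and 1.03 FPKM in PTZ-1 to PTZ-3, and at 1.15 and 0.904 FPKM in Q808-1 and Q808-2. The highest values were in PTZ-1 and PTZ-2, and even PTZ-3 and both Q808 libraries lay above every Con. library. The fragments behind these values numbered 50 in Con., 476 in PTZ and 70 in Q808, so that counting error is small beside the spread within the PTZ group (4.06 ± 2.77 FPKM, SD, n = 3). PTZ-3 was within the counting interval of Q808-1, which runs from 0.802 to 1.59 FPKM.

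*Stat3*, the transcription factor itself, was at 9.63, 11.9 and 13.5 FPKM in the Con. libraries, at 19.7, 27.4 and 14.9 FPKM in the PTZ libraries and at 16.1 and 14.9 FPKM in the Q808 libraries. The PTZ group, 20.7 ± 6.33 FPKM (SD, n = 3), was 1.77-fold above the Con. group, 11.7 ± 1.96 FPKM (SD, n = 3), without overlap. PTZ-3 was at 14.88 FPKM and Q808-2 at 14.86 FPKM. *Stat3* and *Socs3* thus had the same 2 libraries at the top, PTZ-2 and PTZ-1 in that order.

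The chemokines *Ccl2* and *Ccl7*, which recruit monocytes through the receptor CCR2 and related receptors, lie next to each other in the genome and were near the limit of detection in Con. rats. *Ccl2* was listed at 0 in Con.-1 and Con.-2 and at 0.0908 FPKM in Con.-3, at 0.916, 0.892 and 0.105 FPKM in the PTZ libraries, and at 0.415 and 0.521 FPKM in the Q808 libraries. These levels stand for 1 fragment in the Con. group, 11, 11 and 1 fragments in PTZ-1 to PTZ-3, and 4 and 6 fragments in Q808-1 and Q808-2. The PTZ to Con. ratio of fragments, scaled by depth, was 24.0, with a counting interval from 3.90 to 989, and PTZ-3 did not differ from Con.-3 beyond counting error.

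*Ccl7* followed another order of libraries. It was at 0.0870, 0 and 0.0878 FPKM in the Con. libraries, at 0.483, 0.549 and 0.917 FPKM in the PTZ libraries, and at 0 and 0.168 FPKM in the Q808 libraries. PTZ-3 was the highest library for *Ccl7*, with 9 fragments, and the lowest PTZ library for *Ccl2*, with 1 fragment. Over the groups there were 2 fragments in Con., 22 in PTZ and 2 in Q808. The ratio of PTZ to Con. was 11.5 (counting interval 2.82 to 101) and that of Q808 to PTZ 0.145 (counting interval 0.0166 to 0.592).

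*Nfkbia*, which encodes the NF-κB inhibitor IκBα and is itself an NF-κB target, was at 15.3, 20.7 and 18.7 FPKM in the Con. libraries and at 36.2, 35.7 and 18.5 FPKM in the PTZ libraries. In the Q808 libraries it was at 44.7 and 32.0 FPKM. PTZ-3 lay inside the Con. range, while both Q808 libraries lay above it, and Q808-1 was the highest of all 8. At 341 to 884 fragments per library, the counting intervals of PTZ-1, PTZ-2 and both Q808 libraries were clear of those of the Con. libraries.

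*Birc3* encodes cIAP2, a ubiquitin ligase that acts upstream of NF-κB and is induced by it. It was at 0.197, 0.107 and 0.0710 FPKM in the Con. libraries, at 0.312, 0.393 and 0.297 FPKM in the PTZ libraries and at 0.325 and 0.204 FPKM in the Q808 libraries. The PTZ libraries lay above the Con. libraries on 73 against 28 fragments, a ratio of 2.72 (counting interval 1.74 to 4.37). *Icam1*, the adhesion molecule that leukocyte integrins bind, was at 1.49, 0.773 and 1.14 FPKM in the Con. libraries, at 1.75, 2.19 and 1.77 FPKM in the PTZ libraries and at 2.02 and 2.81 FPKM in the Q808 libraries. Its highest library was Q808-2, and all 5 PTZ and Q808 libraries lay above the 3 Con. libraries.

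Of the cytokines, *Tgfb1*, which encodes TGF-β1, was at 6.65, 4.99 and 7.34 FPKM in the Con. libraries, at 8.78, 9.77 and 11.9 FPKM in the PTZ libraries and at 11.1 and 6.83 FPKM in the Q808 libraries. PTZ and Con. did not overlap, and Q808-2 lay within the Con. range. *Il1b*, which encodes the pyrogenic cytokine IL-1β, was at 0.0535, 0.0900 and 0.162 FPKM in the Con. libraries, at 0.198, 0.289 and 0.0626 FPKM in the PTZ libraries and at 0.0617 and 0.0515 FPKM in the Q808 libraries. With 1 to 6 fragments per library its counting intervals overlap in all 8 libraries.

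Between the PTZ and Con. groups, the limma difference in log2(FPKM + 0.1), which understates the change of genes with low FPKM, was above 0 for all 9 genes. It was 2.66 (standard error 0.64) for *Socs3*, 2.26 (0.43) for *Ccl7*, 2.25 (0.70) for *Ccl2*, 0.98 (0.37) for *Birc3*, 0.79 (0.25) for *Stat3*, 0.73 (0.31) for *Icam1*, 0.68 (0.21) for *Tgfb1*, 0.67 (0.28) for *Nfkbia* and 0.43 (0.46) for *Il1b*. A gene was called where its difference exceeded 1.5-fold with an unadjusted p-value under 0.05, the rule used throughout, and 8 of the 9 were called higher, all but *Il1b*, where 1.69% of the 15593 tested genes were called higher. The groups were apart, with every PTZ library higher, for 7 of the 9, where 4.11% of all tested genes were, and overlapped for *Nfkbia* and *Il1b*. For *Ccl2*, PTZ-3 and Con.-3 had 1 fragment each, and their order follows only what 1 fragment is worth in each library. The median difference was 0.79 for the 9 genes and -0.041 for all tested genes. The genes were chosen with this comparison known, so these counts only describe the choice. After Benjamini-Hochberg adjustment over all genes, no gene of the whole table had a limma p-value under 0.05 (589 had an unadjusted one), nor did any with voom.

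The calls rested on few libraries. Without PTZ-2, 3 of the 9 were called (*Ccl7*, *Socs3* and *Tgfb1*), without PTZ-1 4, without Con.-2 4, without Con.-3 5, and without Con.-1 or PTZ-3 6. *Ccl7* and *Socs3* were called in all 6 of these fits. *Ccl2* lost its call without PTZ-1 or PTZ-2, *Stat3* without Con.-1 or PTZ-2, *Tgfb1* without Con.-2 or PTZ-3, and *Birc3* without Con.-2, Con.-3, PTZ-1 or PTZ-2. *Nfkbia* kept its call only without PTZ-3, and *Icam1* only without Con.-1. When libraries of equal number were blocked, 7 of the 9 were called, with *Icam1* lost, and 616 of all tested genes against 395 with no replicate block.

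**Figure D2:**
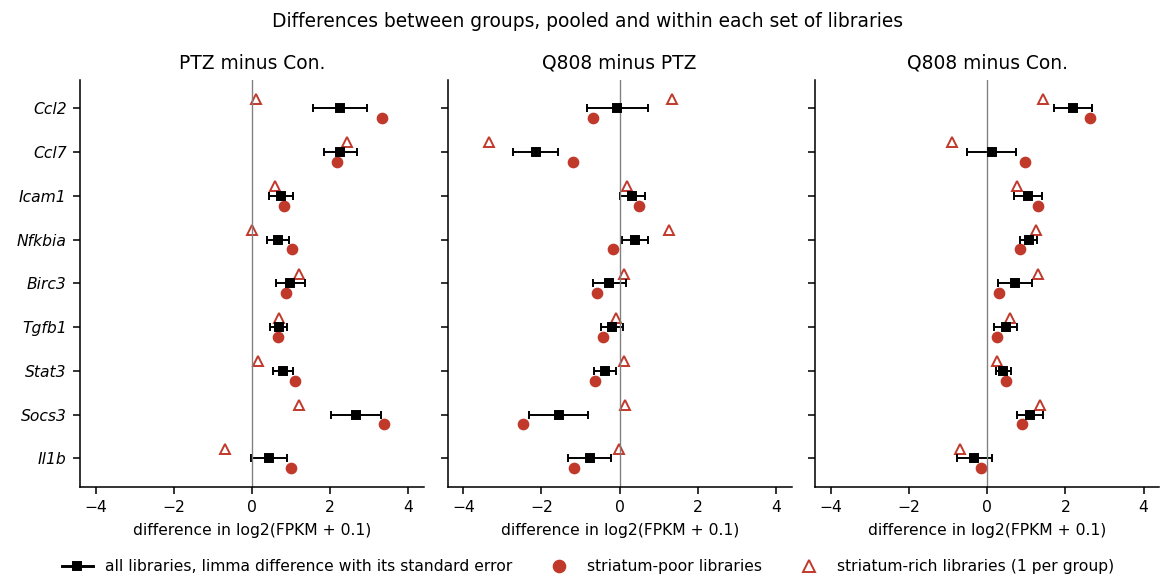
Difference in log2(FPKM + 0.1) between groups for each of the 9 genes, in 3 panels. Black squares are limma differences over all libraries of the groups with their standard error, red filled circles the differences within the striatum-poor libraries and open triangles those within the striatum-rich libraries, 1 per group. For PTZ minus Con., *Socs3* lies at 3.38 in the striatum-poor and 1.21 in the striatum-rich libraries, and *Ccl2* at 3.33 and 0.11.

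Within the striatum-poor libraries, PTZ-1 and PTZ-2 against Con.-1 and Con.-2, the differences were larger for 6 of the genes than over all libraries. All 9 genes were higher in both PTZ libraries than in both Con. libraries, where 15.8% of all tested genes were. *Socs3* differed by 3.38 (standard error 0.30) on the log2 scale, *Stat3* by 1.11 (0.20), *Nfkbia* by 1.01 (0.16), *Ccl7* by 2.17 (0.44), *Tgfb1* by 0.67 (0.18) and *Il1b* by 0.99 (0.39). *Ccl2*, with 22 fragments in PTZ and none in Con., was at least 7.32-fold higher against a floor of 3 fragments over the Con. libraries, without the counting error of the PTZ fragments, and the counting interval of the ratio begins at 5.47. These 7 were called higher, where 4.10% of all tested genes were, and *Birc3* (0.86, standard error 0.38) and *Icam1* (0.81, standard error 0.36) were not. *Il1b*, on 10 against 3 fragments, was no longer called with the replicate block, with pseudocount 1 or with voom, nor without Con.-1, Con.-2 or PTZ-2. The call for *Tgfb1* was lost without Con.-2 or PTZ-2, and *Icam1* was called without Con.-1. Here too the counts and calls describe genes that were chosen by their values, and are no test.

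In the striatum-rich libraries, PTZ-3 against Con.-3, there are no replicates and no test. *Tgfb1* was 1.62-fold higher in PTZ-3 (counting interval 1.30 to 2.00), *Socs3* 2.65-fold (1.38 to 5.38), *Birc3* 4.18-fold (1.495 to 14.4), *Ccl7* 10.4-fold (1.45 to 458) and *Icam1* 1.55-fold (1.02 to 2.37). *Nfkbia* had a ratio of 0.992 (0.858 to 1.15) and *Stat3* of 1.10 (0.999 to 1.21). *Ccl2* had 1 fragment in each library, and *Il1b* 1 in PTZ-3 and 3 in Con.-3, a ratio of 0.387 (0.00737 to 4.82). For *Nfkbia* and *Stat3* the upper ends of these intervals lie below the 2.00-fold and 2.19-fold differences of the striatum-poor libraries, but whether the sets differ was not tested. For *Tgfb1* and *Ccl7* both sets gave similar ratios, 1.59 and 11.9 in the striatum-poor libraries.

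The lists of other genes moved with some of these values. Over 8 immediate early genes, which neurons switch on within minutes of strong activity, the mean log2(FPKM + 0.1) was 2.53, 2.67 and 4.61 in the Con. libraries, 4.67, 6.20 and 3.38 in the PTZ libraries and 4.38 and 3.84 in the Q808 libraries. PTZ-2 was highest and PTZ-1 second for this list, the order seen for *Socs3* and *Stat3*, and PTZ-3 was below Con.-3. Over 6 glucocorticoid induced genes, the means were 3.87, 4.15 and 4.16 in Con., 4.86, 4.79 and 3.93 in PTZ and 4.76 and 4.47 in Q808, the 3 Con. libraries and PTZ-3 being the lowest 4 for this list as for *Nfkbia*. Of this list, *Sgk1*, *Tsc22d3* and *Pdk4* were higher in both Q808 libraries than in every Con. library, and *Per1* and *Zbtb16* overlapped. *Fkbp5* was lower, at 11.65 and 16.2 FPKM in Q808-1 and Q808-2 against 19.2 to 20.02 FPKM in Con. The part of either response in the 9 genes was not tested.

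**Figure D3:**
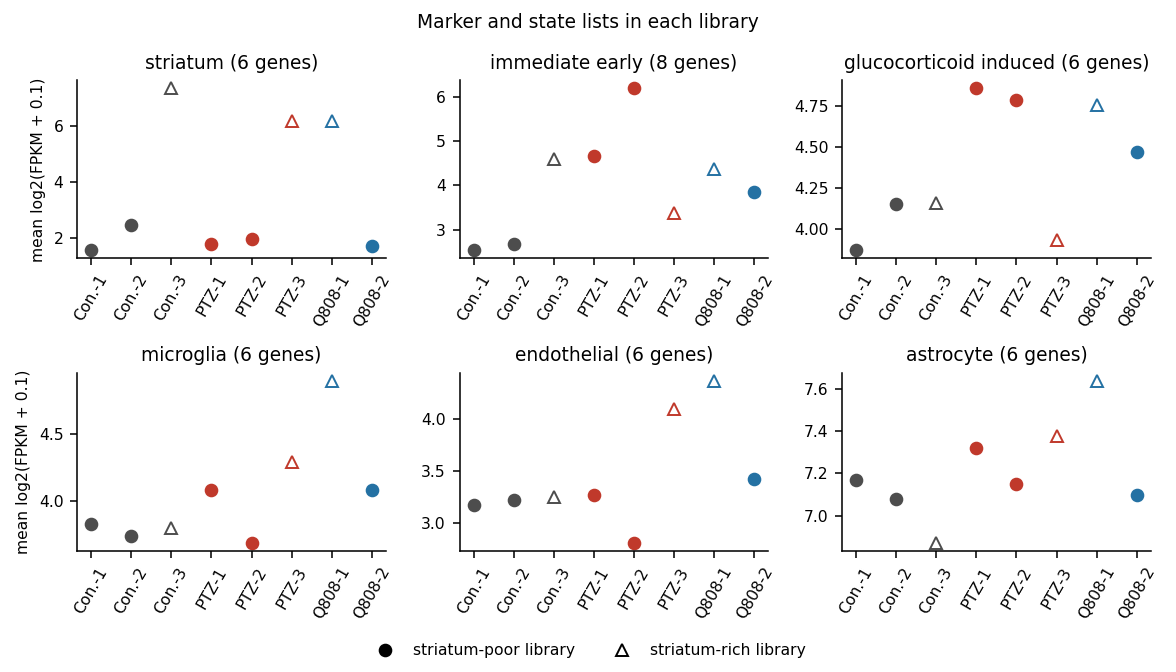
Mean log2(FPKM + 0.1) of 6 lists of marker or state genes in each library, filled circles for striatum-poor and open triangles for striatum-rich libraries. The vertical axes differ and do not start at 0. The striatum list parts Con.-3, PTZ-3 and Q808-1 from the rest, and the immediate early list is highest in PTZ-2 (6.20) and PTZ-1 (4.67).

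Markers of cells that carry these genes were compared as whole lists. The summed level of 6 microglia markers was 102 to 111 FPKM in Con., 99.0 to 154 FPKM in PTZ and 124 to 218 FPKM in Q808, and that of 6 endothelial markers 83.7 to 86.9, 67.0 to 157 and 98.3 to 179 FPKM. PTZ-3 and Q808-1 were the highest libraries for both. The 6 astrocyte markers summed to 1445 to 1680 FPKM in Con., 1679 to 2003 FPKM in PTZ and 1561 to 2625 FPKM in Q808, and the 6 pericyte and smooth muscle markers to 67.6 to 81.0, 58.3 to 155 and 130 to 160 FPKM. The oligodendrocyte list, 6 genes, overlapped between all groups, with means of 7.42 to 8.84 on the log2 scale in Con., 7.71 to 8.77 in PTZ and 7.85 to 9.64 in Q808. Blood leukocyte markers, 6 genes, were low in every group, at 1.88 to 9.91 FPKM in Con., 4.77 to 5.82 FPKM in PTZ and 4.61 to 5.65 FPKM in Q808. The neutrophil gene *Mpo* was at 0 in all libraries but Con.-1 and Q808-2. The B cell gene *Cd79b* was at 0 in all but Con.-3, PTZ-2 and PTZ-3. Perivascular macrophage markers, 4 genes, were at 0.365 to 2.10, 1.37 to 2.04 and 3.22 to 3.41 FPKM. On the log2 scale, PTZ-1 and PTZ-2, which had the high *Socs3*, *Stat3* and *Ccl2*, had means of 4.08 and 3.69 on the microglia list against 3.74 to 3.83 in Con., of 3.27 and 2.81 on the endothelial list against 3.17 to 3.25, and of 7.32 and 7.15 on the astrocyte list against 6.87 to 7.17. The part of these cells in the 9 genes was not tested. In bulk tissue, more cells of a type and more RNA per cell cannot be told apart.

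Markers of choroid plexus also differed widely between libraries, and whether this reflects dissection was not tested. The summed level of 6 choroid plexus markers was 92 FPKM in the lowest and 2534 FPKM in the highest Con. library, 277 to 492 FPKM in PTZ and 163 and 6437 FPKM in the 2 Q808 libraries, and it was lower in PTZ-1 and PTZ-2 than in Con.-1 and Con.-2. Summed meningeal fibroblast markers, 6 genes, were at 3.41 to 22.1 FPKM in Con., 17.2 to 19.7 FPKM in PTZ and 10.5 and 45.2 FPKM in Q808. The part of either tissue in the 9 genes was not tested.

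Between the Q808 and PTZ groups the 9 genes did not move together. *Ccl7* was the only one called, lower by -2.15 (standard error 0.58), where 0.564% of all tested genes were called lower. *Socs3* differed by -1.56 (0.76), *Il1b* by -0.77 (0.54), *Stat3* by -0.37 (0.28), *Birc3* by -0.27 (0.42), *Tgfb1* by -0.20 (0.28) and *Ccl2* by -0.06 (0.78), and *Icam1* and *Nfkbia* had values above 0, at 0.32 (0.32) and 0.39 (0.34). None of these 8 was called. Q808 and PTZ libraries were apart for *Ccl7* and *Il1b*, both lower in Q808, where 5.02% of all tested genes were. For *Il1b*, PTZ-3 and both Q808 libraries had 1 fragment each, so their order follows only what 1 fragment is worth in each library. The *Ccl7* call was lost without Q808-1, where the gene is listed at 0, at a difference of -1.44. This call is a description, as the gene was chosen by values in these libraries.

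The calls of *Socs3* and *Stat3* changed with PTZ-3. Without PTZ-3, *Socs3*, *Stat3* and *Ccl7* were called lower in Q808, with differences down to -2.33 for *Socs3*. The number of all tested genes called also moved widely with a library left out, as given in the last section. In the striatum-poor libraries, Q808 has the single library Q808-2 and no spread of its own. The differences there were -2.48 for *Socs3*, -0.64 for *Stat3* and -1.20 for *Ccl7*. There the ratio of fragments, scaled by depth, of Q808-2 to PTZ-1 and PTZ-2 was 0.162 for *Socs3*, with a counting interval from 0.111 to 0.230, and 0.629 for *Stat3* (0.585 to 0.676). Between the striatum-rich libraries Q808-1 and PTZ-3, the same ratios were 1.11 (0.669 to 1.84) for *Socs3* and 1.08 (0.981 to 1.19) for *Stat3*.

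*Nfkbia* pointed in opposite ways in the 2 sets. Q808-1 was 2.41-fold above PTZ-3 (counting interval 2.13 to 2.74), and Q808-2 was at 0.890 of PTZ-1 and PTZ-2 (0.815 to 0.970). *Ccl2* was likewise 3.94-fold higher in Q808-1 than in PTZ-3, on 4 fragments against 1 (0.390 to 194), and at 0.576 in Q808-2 against PTZ-1 and PTZ-2 (0.191 to 1.47). Whether the differences in the 2 sets are unequal was not tested.

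Against the Con. group, the Q808 group was called higher for 4 of the 9 genes, where 3.07% of all tested genes were called higher. They were *Ccl2* with 2.19 (standard error 0.48), *Socs3* with 1.10 (0.33), *Nfkbia* with 1.06 (0.22) and *Icam1* with 1.05 (0.36). *Birc3* (0.71, standard error 0.44), *Tgfb1* (0.47, 0.29), *Stat3* (0.41, 0.19), *Ccl7* (0.11, 0.63) and *Il1b* (-0.33, 0.44) were not called. Both Q808 libraries lay above all Con. libraries for 6 genes, the 4 called ones and *Birc3* and *Stat3*, where 13.3% of all tested genes did. *Ccl2* and *Nfkbia* were called whichever library was left out, whereas *Icam1* was lost without Con.-2, Con.-3 or Q808-2 and *Socs3* without Con.-1 or Q808-1, and *Tgfb1* was called without Q808-2. The 9 genes were chosen by values in these libraries, so these calls and their stability are descriptions and no test. The 3 comparisons share their libraries, so that a low Con. value enters this one and that of PTZ with Con. alike.

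By level, the Q808 means set between or beside the other groups as follows. For *Socs3*, Q808 was at 1.02 ± 0.171 FPKM (SD, n = 2), 2.40-fold above Con. and 0.252 of PTZ. For *Icam1*, Con. was at 1.13 ± 0.356 FPKM (SD, n = 3), PTZ at 1.90 ± 0.248 FPKM (SD, n = 3) and Q808 at 2.42 ± 0.557 FPKM (SD, n = 2). *Nfkbia* had the same order, with 18.2 ± 2.73, 30.2 ± 10.1 and 38.4 ± 8.98 FPKM. For *Ccl7*, Q808 (0.0839 ± 0.119 FPKM, SD, n = 2) and Con. (0.0583 ± 0.0505 FPKM, SD, n = 3) were both near 1 fragment per library. The direction of *Ccl7* between Q808 and Con. turned with quantile normalization, to -0.02.

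The genes most like the 9 in their pattern were looked for among all others with a mean of at least 1 FPKM. Likeness was the Euclidean distance over the 8 libraries between the standardized levels of a gene and the mean standardized profile of the 9. *Gadd45g* was nearest (distance 0.630), followed by *Hmga1* (0.758) and *Shisa8* (0.795), and *Egln2* (0.821) was also among the 5 nearest. *Gadd45g*, a stress response gene, was at 10.2, 6.31 and 8.76 FPKM in Con., at 28.4, 46.8 and 13.7 FPKM in PTZ and at 18.3 and 14.7 FPKM in Q808. In each of these 4, PTZ-2 was the highest library. Of the 9 genes, *Socs3* (0.94), *Stat3* (0.95) and *Ccl2* (1.03) lay nearest to the mean profile and *Il1b* (2.47) and *Ccl7* (2.20) farthest.

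Other genes of the pathways were taken from 8 lists with 106 tested genes that do not include the 9. The lists too were chosen with earlier results of these data known. Shares called above those of all genes can therefore follow in part from the choice, here and below. Between PTZ and Con., 10 of the 106 were called higher and none lower, or 9.43% against 1.69% of all genes called higher, and the median difference was 0.07. The adjusted limma p-value was 0.999 for each of the 10, and between 0.121 and 1 over the alternatives, and voom on the recovered fragments called 9 higher and 0 lower. STAT3 target and feedback genes had 4 of 16 called, *Timp1* with 3.27 (standard error 0.79), *Pim1* with 2.26 (0.87), *Socs2* with 0.74 (0.21) and *Pim3* with 0.65 (0.27). *Timp1*, an inhibitor of matrix metalloproteinases, was at 2.91, 1.15 and 1.47 FPKM in Con., at 15.6, 57.9 and 5.70 FPKM in PTZ and at 3.35 and 5.52 FPKM in Q808. *Pim1*, a kinase induced by STAT3, was at 1.19, 1.45 and 1.67 FPKM in Con., at 9.65, 23.5 and 1.596 FPKM in PTZ and at 2.39 and 1.77 FPKM in Q808. For *Pim1*, as for *Ccl2* and *Nfkbia*, PTZ-3 was at the Con. level, whereas for *Timp1* it was above it.

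Upstream of STAT3, 2 of 16 genes were called higher, *Osmr*, the receptor subunit for oncostatin M, with 1.74 (standard error 0.34), and *Lif*, an IL-6 family cytokine, with 1.09 (0.44). *Osmr* was at 0.353, 0.262 and 0.335 FPKM in Con., at 1.28, 1.79 and 0.912 FPKM in PTZ and at 1.11 and 0.630 FPKM in Q808, so that every PTZ and Q808 library lay above every Con. library. Of 12 NF-κB subunits and inhibitors, 2 were called higher, the nuclear IκB proteins *Bcl3* with 1.62 (0.44) and *Nfkbiz* with 1.08 (0.34). *Bcl3* was at 0.139, 0.133 and 0.240 FPKM in Con., at 0.787, 1.14 and 0.394 FPKM in PTZ and at 0.845 and 0.306 FPKM in Q808. *Nfkb1*, a subunit, had 0.40 (0.18) and *Rela* 0.14 (0.20), neither of them called.

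Of the 17 tested genes upstream of NF-κB and the 17 tested NF-κB targets, none was called between PTZ and Con. over all libraries by limma with no block or by voom, none had an unadjusted limma p-value under 0.05, and those with the smallest p-values among the targets were *Ccl3* (1.08, standard error 0.46), *Mmp9* (1.41, 0.72) and *Vcam1* (0.35, 0.19). The targets *Ccl3* and *Mmp9* were called with the replicate block and with a term for the striatum set, *Ccl3* also with no filter, with all 3 groups in a fit and without Con.-2, and *Mmp9* without PTZ-3. The target *Cd14* was called with the striatum term alone. Upstream the smallest p-values were those of *Map3k14* (-0.56, 0.24), *Tnfrsf1b* (0.63, 0.30) and *Traf2* (-0.42, 0.27), of which *Tnfrsf1b* was called with no filter and with all 3 groups in a fit. Without PTZ-3, *Map3k14*, *Traf1* and *Traf2* were also called, and without PTZ-1 *Ccl5*. *Tnf* was listed at 0 in all 8 libraries and not tested. *Il6* was at 0 to 0.242 FPKM in the PTZ libraries and 0.0678 to 0.134 FPKM in the Con. libraries. *Il1r1*, the receptor that signals for IL-1β, was called higher at 0.83 (0.32), as 1 of 6 tested genes of its list. Among the TGF-β pathway genes 1 of 16 was called, *Lrrc32*, which encodes a surface protein that binds latent TGF-β, with 1.28 (0.32). None of the 6 tested chemokine and ICAM-1 receptor genes was called by limma with no block or by voom or had an unadjusted limma p-value under 0.05, with *Ackr1*, which was called with the striatum term, at 0.60 (0.39), *Itgal* at -0.18 (0.35) and *Itgb2* at 0.10 (0.29). *Bcl3*, *Lrrc32*, *Osmr*, *Socs2* and *Timp1* kept their call whichever library was left out. *Nfkbiz* lost it without PTZ-1 or PTZ-2, *Il1r1* without Con.-1, Con.-3, PTZ-1 or PTZ-3, *Lif* without Con.-1, Con.-3, PTZ-1 or PTZ-2, *Pim3* without Con.-1, Con.-2, PTZ-1 or PTZ-2, and *Pim1* without any library but PTZ-3.

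**Figure D4:**
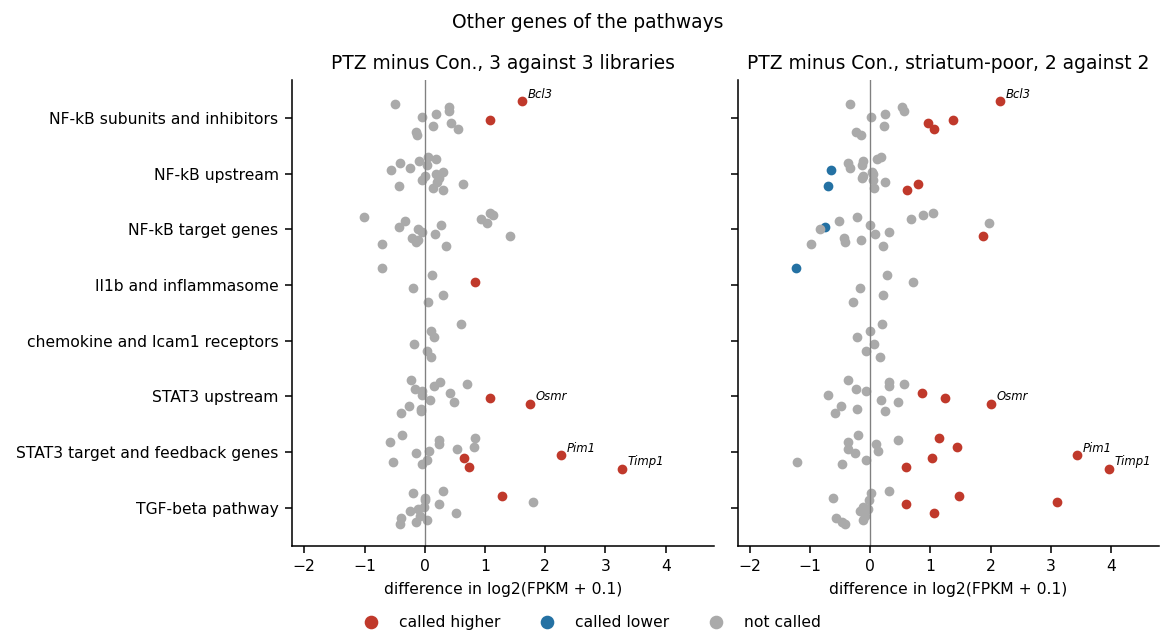
Difference in log2(FPKM + 0.1) between PTZ and Con. for the 106 tested genes of 8 pathway lists, 1 point per gene, over all libraries (left, 3 against 3) and over the striatum-poor libraries (right, 2 against 2). Names are given for genes called in both panels with a difference above 1.5. Red points were called higher, blue points lower and grey points were not called. On the left 10 genes are red and none blue, and on the right 20 are red and 4 blue.

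Within the striatum-poor libraries, 20 of the 106 were called higher and 4 lower between PTZ and Con., or 18.9% against 4.10% of all genes called higher and 5.71% called lower. The list of STAT3 targets held 6 of them, *Timp1* (3.96, standard error 0.68), *Pim1* (3.43, 0.42), *Junb* (1.45, 0.32), *Cebpb* (1.14, 0.11), *Pim3* (1.03, 0.21) and *Socs2* (0.60, 0.19). *Cebpb*, *Smad7* (1.06, 0.13) and *Pim1* had Benjamini-Hochberg adjusted limma p-values of 0.0241, 0.0385 and 0.0393, which ranged from 0.00664 to 0.362 over the alternatives. *Cebpb*, a transcription factor of the acute phase, was at 21.4 FPKM in Con.-1 and Con.-2, at 51.2 and 44.0 FPKM in PTZ-1 and PTZ-2 and at 19.5 FPKM in Q808-2. *Smad7*, the inhibitory SMAD, was called in the TGF-β list together with *Lrrc32* and *Skil*. Among NF-κB subunits and inhibitors *Bcl3*, *Nfkbiz*, *Relb* and *Rel* were called higher, and *Mmp9* (1.88, 0.35) was the 1 target called higher of 17. Also called higher were *Osmr*, *Lif*, *Jak2*, *Tnfrsf1b* and *Traf6*, and the 4 called lower were *Casp1* (-1.23, 0.40), *Cxcl16* (-0.74, 0.23), *Traf2* (-0.69, 0.21) and *Map3k14* (-0.65, 0.21). The 6 chemokine and ICAM-1 receptor genes had none called by limma or voom and none with an unadjusted p-value under 0.05, with *Ackr1* at 0.20 (0.10) and *Itgb2* at 0.17 (0.25). *Bcl3*, *Cebpb*, *Junb*, *Lrrc32*, *Mmp9*, *Nfkbiz*, *Osmr*, *Pim1*, *Pim3*, *Smad7* and *Timp1* kept their call whichever library was left out, and the other 9 called higher lost it without at least 1 of the 4 libraries.

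Between Q808 and PTZ, 3 of the 106 were called, all higher in Q808, or 2.83% against 1.36% of all genes called higher. They were *Itgal*, a chain of the integrin LFA-1 that binds ICAM-1, with 1.18 (standard error 0.43), *Cish*, a SOCS family inhibitor, with 0.95 (0.39), and *Eng*, a TGF-β coreceptor of endothelium, with 0.69 (0.25), each with an adjusted limma p-value of 0.952 and from 0.31 to 1 over the alternatives. *Itgal* was at 0.332, 0.239 and 0.219 FPKM in PTZ and at 0.918 and 0.557 FPKM in Q808. Each of the 3 calls was lost when PTZ-1, PTZ-2 or Q808-1 was left out. Without PTZ-3, 21 of the 106 were called. Of these, *Cebpb*, *Jak2*, *Mmp9*, *Pim1*, *Skil* and *Timp1* were lower in Q808 and the rest higher. The number of all tested genes called also moved widely with a library left out, as given in the last section.

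Between Q808 and Con., 11 of the 106 were called higher and 1 lower, or 10.4% against 3.07% of all genes called higher and 0.391% called lower. The lists of receptors and of the TGF-β pathway had 3 called higher each, *Icam2*, *Itgal* and *Itgam* in the first and *Eng*, *Lrrc32* and *Tgfbr2* in the second, and *Smad3* was lower by -0.75. *Lrrc32* differed by 1.54 (standard error 0.30), *Il1r1* by 1.39 (0.33), *Timp1* by 1.29 (0.46), *Tnfrsf1b*, a TNF receptor, by 1.20 (0.30), *Osmr* by 1.18 (0.38) and *Nfkbiz* by 1.02 (0.27). The adjusted limma p-value was 0.901 for each of those called higher, and from 0.276 to 1 over the alternatives. *Eng*, *Il1r1*, *Lrrc32* and *Tnfrsf1b* kept their call whichever library was left out. *Nfkbiz* lost it without Q808-1, *Osmr* without Con.-2 or Q808-1, *Timp1* without Con.-2, Con.-3 or Q808-2, and *Icam2*, *Itgal*, *Itgam*, *Tgfbr2* and *Smad3* each without Con.-1, Con.-2 or Q808-1, *Itgam* also without Con.-3. Over the microglia list the Q808 mean of log2(FPKM + 0.1) was 4.48 against 3.79 in Con., over the endothelial list 3.89 against 3.21, over the pericyte and smooth muscle list 3.79 against 2.88 and over the erythroid list 3.75 against 2.02, in each case with both Q808 libraries above all Con. libraries, and the part of these cells in the called genes was not tested. The perivascular macrophage list (-0.60 against -1.79) and the glucocorticoid induced list (4.62 against 4.06) were likewise apart. The other marker lists overlapped between Q808 and Con.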

How the data were processed

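Hippocampal RNA of 8 Wistar rats was sequenced after capture of mRNA with beads, with 1 library per rat, and the groups follow the labels of the libraries. The authors trimmed the reads, and deposited 1 value per gene and library in FPKM for 22601 genes, made with Cufflinks. The submitters' processing notes also name HISAT2, Bowtie2, StringTie, SAMtools, HTSeq and DESeq, without roles. The genome build was not given in the sources used here. The 9 genes, the 8 pathway lists and the 15 marker lists were chosen with earlier results of these data known.

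Symbols came from the RefSeq table of GRCr8 for 20633 genes, and 2 listed genes (*Ccr2* and *Ly6c*) were not analysed here. The 15593 genes with a mean of at least 0.1 FPKM were fitted on log2(FPKM + 0.1) with limma 3.58.1 in R 4.3.3, each comparison on its own groups, by empirical Bayes with a mean-variance trend and Benjamini-Hochberg adjustment over all of them. Genes named were the 9, the pathway genes called or, in lists with none called, those with the smallest p-values, and the 5 nearest in profile, except that 2 genes are not reported by name here. The striatum-poor set was parted from the rest at the largest gap in the mean of the striatum list.

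As FPKM counted whole fragments, ratios between libraries gave the value of 1 fragment in each, and 15363 of the 15593 tested genes came out whole in all libraries within 0.01. The numbers are the smallest that keep these ratios, so real depth may be a whole multiple of them. Tables and figures were made in Python 3.11.15 (matplotlib 3.10.9, pandas 2.3.3, numpy 2.4.6, and scipy 1.17.1 for intervals). Replicate numbers come from the labels, and the sources used here do not say that they mark a shared cage, litter or day. The deviations of equally numbered Con. and PTZ libraries from their group means correlated at 0.309, 0.392 and 0.472 over 12563 genes. Con.-2 with PTZ-1 reached 0.452, and Con.-3 with Q808-1, both striatum-rich like PTZ-3, reached 0.689. The numbers were used as pairs only in the replicate block, an alternative, and the fits with no block were unpaired. Nothing states that replicates were processed in separate batches. The alternatives were other pseudocounts (1 and 0.01), no filter, a mean of at least 1 FPKM, quantile normalization, the replicate block, a term for the striatum set, all 3 groups in a fit and each library left out. Voom on recovered fragments and the 3 groups of the striatum-poor libraries in a fit were added after the data were seen.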

Additional observations from a re-analysis of the deposited data

How the results depend on the processing

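Of 488 refits of single genes among the 9, 413 kept direction and side of the threshold, 51 lost a call, 13 gained one and 11 changed sign. For PTZ against Con., 395 of all genes were called, and 219 with pseudocount 1, 616 with the replicate block, 669 with a term for the striatum set and 249 to 1135 with a library left out, while the 8 of the 9 became 4 at a mean of at least 1 FPKM, where only 5 of the 9 remain to be tested, and 3 to 6 with a library left out, and the 10 pathway genes 6 to 16. For Q808 against PTZ, 300 genes became 193 at a mean of at least 1 FPKM, 1894 with the block, 590 with the striatum term, 1625 in the striatum-poor libraries and 132 to 1569 with a library left out. The single call among the 9 became 0 at a mean of at least 1 FPKM, 2 with the block, 2 in the striatum-poor libraries and 0 to 3 with a library left out. The 3 pathway calls became 1 with pseudocount 1, at a mean of at least 1 FPKM or after quantile normalization, 23 with the block, 6 with all 3 groups in a fit, 13 with the striatum term, 19 in the striatum-poor libraries and 0 to 21 with a library left out. For Q808 against Con., 540 became 340 with pseudocount 1, 1076 with the block, 1019 with the striatum term and 279 to 1799 with a library left out, the 4 of the 9 became 2 with pseudocount 1 or after quantile normalization and 3 to 4 with a library left out, and the 12 pathway calls 19 with the block and 5 to 21. In the striatum-poor libraries PTZ against Con. called 1530, and 906 with pseudocount 1 and 953 to 1989 with a library left out, the 7 of the 9 became 4 at a mean of at least 1 FPKM and 5 to 7, and the 24 pathway calls 15 with pseudocount 1 and 13 to 26. Quantile normalization moved the share of higher calls from 70.7% to 47.8% (Q808 against PTZ), 88.7% to 64.2% (Q808 against Con.) and 41.8% to 60% (striatum-poor). The sign turned for Q808 against PTZ in *Ccl2* (0.05 with pseudocount 0.01, 0.17 with the striatum term, -0.83 to 0.33 with a library left out, being above 0 without PTZ-1, PTZ-2 or Q808-1), *Nfkbia* (-0.17 in the striatum-poor libraries) and *Tgfb1* (-0.55 to 0.14 with a library left out), and for Q808 against Con. in *Ccl7* (-0.11 with pseudocount 0.01, -0.02 after quantile normalization, -0.60 to 0.82 with a library left out). The 2 Q808 libraries deviate from their group mean by equal and opposite amounts. Their correlations of -0.439 and 0.416 with the equally numbered PTZ libraries therefore cannot show whether the numbers mark pairs. In the comparisons of Q808, the block changed no call among the 9 other than *Socs3* (gained against PTZ, lost against Con.), *Icam1* (lost against Con.) and *Tgfb1* (gained against Con.). The causes were not tested. *Ccl2*, *Ccl7*, *Birc3* and *Il1b* rest on 0 to 31 fragments per library, which limits any statement on them.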
